A study of Mus musculus with 12 samples.

Results

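A set of 9 genes outside the best known targets of interleukin 2 (IL-2) was followed across the arrays of an IL-2 experiment because each differed strongly with IL-2 in these same arrays. They are Cysltr1, Hbegf, Fgl2, Igfals, Itgb3, Espn, Stard13, Tube1 and Gtf2ird1, 9 of the 18193 genes that the platform's probe table names for the array. Together they are read by 16 of its 45037 probe sets that are not controls. The genes were picked on the IL-2 differences, with no stated threshold, so those differences are described below without a test. All 16 probe sets passed the filter on dim signals, which kept 27022. Without the IL-2 arrays 13 of the 16 would have reached it, and the exceptions were the Stard13 probe set and 1 each of Fgl2 and Tube1, whose passage rested on the group where they were high. Those 3 probe sets were in the fit with the others, but no call is read from them.

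RNA came from CTLL-2, a single line of cytotoxic T cells from a C57BL/6 mouse that depends on IL-2 for survival, and was read on 12 Affymetrix Mouse Genome 430 2.0 arrays. All cells had been kept in IL-2 at 50 U/mL, were starved of it for 14 h, and received cycloheximide, which blocks protein synthesis, at 20 µg/mL. The groups of 4 arrays each were cycloheximide for 30 min, cycloheximide for 4.5 h, and cycloheximide for 30 min before human IL-2 at 100 U/mL for 4 h. No group used here was free of cycloheximide. The labels place it before IL-2 and do not say whether it stayed on during the IL-2 hours, so an effect of IL-2 and one of a shorter exposure to cycloheximide cannot be told apart in the comparison with 4.5 h.

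IL-2 binds a receptor of 3 chains, and Janus kinases at that receptor activate the transcription factor STAT5, the phosphatidylinositol 3-kinase branch and the mitogen-activated protein kinase branch. Cycloheximide is used in such experiments to separate transcripts that respond without newly made protein from those that need it. The 9 genes have their best known roles outside this pathway: in lipid mediator signalling, growth factor shedding, coagulation, cell adhesion, the actin cytoskeleton, the centriole and transcription.

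The array labelled as IL-2 replicate 3 stood apart and was left out, so the IL-2 group held 3 arrays. Its 8 measured T cell markers summed to 244 signal units, against 141160 to 245275 on the other 11 arrays, and 8 muscle markers summed to 146369 against 388 to 725. Arrays were scanned on 3 days. Every 4.5 h array was scanned on the third day and no other array was, so scan day and the 4.5 h group cannot be told apart. The 3 IL-2 arrays shared the first day with 3 of the 30 min arrays. The log2 difference between 3′ and 5′ probe sets of Actb, a measure of RNA integrity, was 0.56 ± 0.171 (SD, n = 4) at 4.5 h, 0.294 ± 0.035 (SD, n = 4) at 30 min and 0.253 ± 0.027 (SD, n = 3) with IL-2, and its part in the results was not tested. Replicates are numbered in the labels and not said to be cultures of their own, so the p-values rest on the spread from array to array, and that spread could be technical. With 3 or 4 arrays a group, array number limits how precise any value is.

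With IL-2, each of the 9 genes stood above its level after 4.5 h of cycloheximide alone on all arrays, and 8 of the 9 also stood above their 30 min level. This was so at 16 of 16 probe sets for the 4.5 h comparison, in an experiment where 20.7% of all probe sets were higher with IL-2 with no overlap of arrays and 12.1% were called, 6.63% higher and 5.51% lower. Since the genes were chosen on this comparison, nothing is read from that count. On the scale used, log2(signal + 16), the differences of the brightest probe set per gene ran from 1.94 to 5.72 with a median of 3.36, beside a median of −0.074 over 12754 genes. The order of the 9 by size depends on the pseudocount, since 5 of them read below the array median on all 4.5 h arrays. With 64 in place of 16, Cysltr1 was at 4.58, Espn went from 4.20 to 2.76, below Hbegf at 3.13, and Stard13 from 3.36 to 2.06. The genes parted in how the groups without IL-2 differed. Between those groups, time in cycloheximide, longer time without IL-2 and scan day cannot be told apart. From 30 min to 4.5 h 6 of the 9 genes fell and Tube1 rose at its brightest probe set. Hbegf was not called, and no call is read for Stard13. In bulk RNA, fewer cells that carry a transcript and less of it per cell cannot be told apart.

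**Figure D1:**
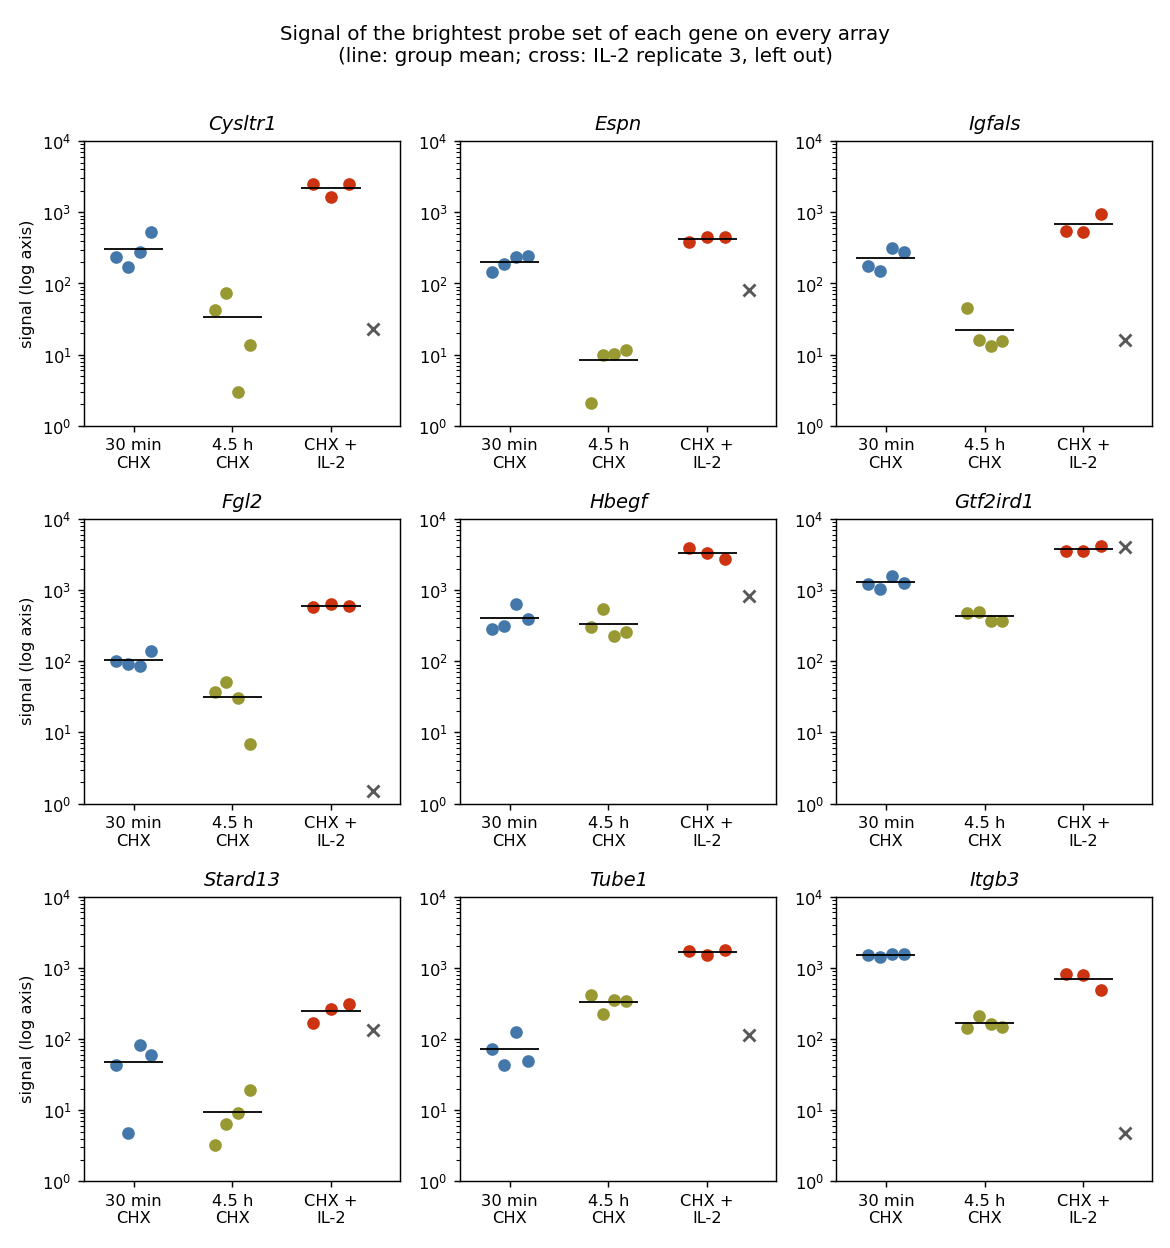
Signal of each array at the brightest probe set of the 9 genes (log axis, arbitrary units), grouped as 30 min and 4.5 h of cycloheximide and IL-2 with cycloheximide, with the array labelled IL-2 replicate 3 drawn apart. The IL-2 arrays lie above all 4.5 h arrays for every gene, and Itgb3 is the gene whose IL-2 arrays (485.5 to 812.6) lie below its 30 min arrays (1440.5 to 1554.2).

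Where a promoter window was at hand it is shown for the genes that carry a short match to a signal-dependent factor's site. RefSeq promoter windows on GRCm38.p6, which run from 250 bases before to 50 bases after an annotated start, were matched for 6 of the 9 genes and gave 10 windows. Hbegf was left out of this search by its chromosome, a limit that was not set on the windows behind the shares below. Both strands were searched for TTCNNNGAA, the GAS element that STAT5 binds, for the AP-1 site TGANTCA, and for GCGNGGGCG, the EGR site. The E-box CACGTG, the ETS core CCGGAA, the cyclic AMP element TGACGTCA and the serum response element were searched too. The windows below are written 5′ to 3′ on the strand of the gene, with the matched letters in capitals. The first is that of Fgl2, chr5:21372423-21372722 on the plus strand, with a GAS match that begins 36 bases before the start and an AP-1 match that begins 16 bases before it.
Fgl2 window: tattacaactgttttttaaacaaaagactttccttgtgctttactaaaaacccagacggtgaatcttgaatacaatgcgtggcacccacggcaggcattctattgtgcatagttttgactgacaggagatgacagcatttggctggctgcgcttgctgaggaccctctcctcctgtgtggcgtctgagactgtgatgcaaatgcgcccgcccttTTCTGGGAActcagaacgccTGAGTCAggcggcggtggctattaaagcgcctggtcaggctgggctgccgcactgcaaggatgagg
The next windows belong to separate annotated starts of Igfals, at chr17:24877594-24877893 and chr17:24877981-24878280 on the plus strand, where a GAS match begins 236 and 58 bases before the start.
Igfals window 1: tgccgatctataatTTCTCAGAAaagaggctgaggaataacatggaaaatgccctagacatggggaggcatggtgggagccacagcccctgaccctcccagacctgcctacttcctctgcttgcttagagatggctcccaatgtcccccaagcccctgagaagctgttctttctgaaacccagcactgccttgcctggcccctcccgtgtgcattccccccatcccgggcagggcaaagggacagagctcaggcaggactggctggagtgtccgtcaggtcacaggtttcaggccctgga
Igfals window 2: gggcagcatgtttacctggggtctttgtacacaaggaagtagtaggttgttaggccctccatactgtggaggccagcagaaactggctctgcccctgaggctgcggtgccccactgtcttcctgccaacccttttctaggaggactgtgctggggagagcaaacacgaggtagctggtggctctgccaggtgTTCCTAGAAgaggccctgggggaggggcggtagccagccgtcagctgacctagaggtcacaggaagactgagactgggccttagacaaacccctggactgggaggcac
The last is an Espn window, chr4:152152340-152152639 on the minus strand, with an EGR match that begins 50 bases before the start.
Espn window 3: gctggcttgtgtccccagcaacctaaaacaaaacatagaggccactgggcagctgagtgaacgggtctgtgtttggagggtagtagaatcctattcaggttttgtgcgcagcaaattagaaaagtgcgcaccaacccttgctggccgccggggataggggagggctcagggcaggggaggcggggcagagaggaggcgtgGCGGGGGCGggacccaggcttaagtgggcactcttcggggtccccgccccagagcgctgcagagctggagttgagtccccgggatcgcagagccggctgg
A GAS match was thus in 3 of the 10 windows, belonging to Fgl2 and Igfals, and the same letters are in 8.3% of the 32851 RefSeq windows of this length. AP-1 was in 1 of 10 against 7.81% of all windows and EGR in 1 of 10 against 5.55%. The E-box, the ETS core, the cyclic AMP element and the serum response element, in 7.15%, 14.9%, 1.79% and 0.466% of all windows, were in 0 of 10. The windows of a gene with several starts are not independent, and those of Igfals lie close together. A match is a description of the letters and shows no binding.

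Among the surface receptors, Cysltr1 encodes a G protein-coupled receptor for cysteinyl leukotrienes, lipid mediators made by mast cells and other leukocytes. It is on the X chromosome and is read by 1418944_at and 1449282_at. At 1418944_at its signals were 237.5, 171.9, 275.2 and 527.0 after 30 min of cycloheximide, 42.9, 74.1, 3.0 and 13.6 after 4.5 h, and 2468, 1645.4 and 2527.6 with IL-2. The 3 groups did not overlap, and every 4.5 h array read below the median of its array, which was 57.6 to 78.1 over the 11 arrays. The transcript fell with cycloheximide time by 2.83 ± 0.47 (log2, SE, adjusted p = 0.00136), and the IL-2 arrays lay 5.72 ± 0.51 above the 4.5 h arrays and 2.89 ± 0.51 above the 30 min arrays. At 1449282_at the signals were 263, 251.9, 254.2 and 379.4, then 5.7, 2.3, 11.5 and 1.7, then 996.1, 956.3 and 1623.3 in the same order of groups. Both probe sets thus put the groups in 1 order, with the IL-2 difference from 4.5 h at 5.81 ± 0.24 and the fall with time at −3.83 ± 0.22 (adjusted p = 1.09e-05) at the second.

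The 4.5 h arrays used for these falls are also those that the IL-2 difference was measured from when the genes were chosen, so a low 4.5 h level enters both. That holds for each test over time below. It also means that the 2 comparisons share their control arrays, and their sizes are given side by side only.

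Cysltr1 belongs with the enzymes, transporters and receptors of the leukotriene pathway, of which 10 of 17 listed genes were tested. With IL-2 against 4.5 h 1 of the 10 rose and 1 fell, where 5.04% and 5.94% of all genes were called higher and lower. The median of the 10 was −0.21, or 0.586 with arrays centred on 23 ribosomal protein genes, a scaling that moved the median of all probe sets from −0.016 to 0.779 and so bears on the direction of every list below. Cysltr2, the other cysteinyl leukotriene receptor, stood at 2520 ± 1124 (SD, n = 4) at 30 min, 601 ± 98.8 (SD, n = 4) at 4.5 h and 1617 ± 470 (SD, n = 3) with IL-2. It fell with time by 1.94 ± 0.31 (adjusted p = 0.00118) and was higher with IL-2 than at 4.5 h by 1.38 ± 0.34 (adjusted p = 0.0125). Ltb4r1, the leukotriene B4 receptor, fell with time as well (−1.01, adjusted p = 0.000356), although that call was lost with centring on the array median. Mgst2, a leukotriene C4 synthase, went the other way, up with time by 1.09 ± 0.18 (adjusted p = 0.00122) and lower with IL-2 than at 4.5 h (−1.13, adjusted p = 0.00186).

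Itgb3 encodes the integrin beta 3 chain, which pairs with the alpha V chain or, on platelets, with alpha IIb, and binds fibrinogen and vitronectin. Its gene is on chromosome 11. At 1455257_at its signals were 1497.1, 1440.5, 1548.8 and 1554.2 at 30 min, 144.9, 212.8, 165.1 and 146.7 at 4.5 h, and 812.6, 793.7 and 485.5 with IL-2. The groups did not overlap, and the order was 30 min, then IL-2, then 4.5 h, which 1.65% of the tested probe sets showed without overlap. It fell with time by 3.07 ± 0.18 (adjusted p = 1.12e-05). At this probe set the IL-2 arrays lay 1.94 ± 0.20 above the 4.5 h arrays and 1.13 below the 30 min arrays (−1.13 ± 0.20). At 1421511_at the signals were 42.5, 101.4, 195.3 and 106.1, then 8, 25.4, 24.4 and 12.5, then 204.5, 188.3 and 118.8. There the IL-2 and 30 min arrays overlapped, and the IL-2 difference from 30 min was 0.66 ± 0.38, so the probe sets differ in its sign. The fall with time was −1.82 ± 0.36 (adjusted p = 0.00332) at that probe set.

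Of 26 genes listed for the other integrins and for talin and the kindlins, which activate integrins, 20 were tested, and with IL-2 against 4.5 h 2 rose and 3 fell, with a median of −0.474, or 0.321 with ribosomal protein centring. Itga6, the laminin receptor chain alpha 6, was higher by 1.68 ± 0.15 (adjusted p = 6e-05), and Itga9 by 1.24 ± 0.21 (adjusted p = 0.00199). Itgb4, the partner chain of alpha 6, was lower (−1.92, adjusted p = 0.00124), as were Itga2b, the platelet chain alpha IIb that pairs with Itgb3 (−1.24, adjusted p = 0.00236), and Itgb7, a gut-homing chain of lymphocytes (−1.94, adjusted p = 0.00282). Over cycloheximide time Itgb7, Itgb4 and Itgae rose, by 1.82 ± 0.33, 1.20 ± 0.28 and 1.50 ± 0.43 (adjusted p = 0.00216, 0.00834 and 0.0216), and 0 of the list fell. Itgb3 thus moved with time in the direction opposite to the 3 integrins that were called with the deposited scaling. With ribosomal protein centring 2 of the list were called higher over time and 2 lower. Under 2-fold, Itga6 and Itgav, the alpha V chain, fell with time (−0.99 and −0.37, adjusted p = 0.000434 and 0.0328). Fermt3 and Itga2b rose (0.84 and 0.73, adjusted p = 0.000758 and 0.0193). The 7 megakaryocyte and platelet markers on the array summed to 498 to 618 at 30 min, 697 to 1097 at 4.5 h and 371 to 528 with IL-2, so their sum was highest in the group where Itgb3 was lowest, with 3 to 5 of the 7 below a signal of 100. Itga2b, named above, was the brightest of them, with means of 259 at 30 min, 444 at 4.5 h and 180 with IL-2. Pf4 was lower at 4.5 h than at 30 min (41.4 against 71.2), while the other markers had higher means at 4.5 h.

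Among the secreted factors, Hbegf encodes heparin-binding EGF-like growth factor, which is made as a membrane protein and shed as a ligand of the EGF receptor. It is on chromosome 18. At 1418350_at its signals were 284.9, 309.3, 639.9 and 389.3 at 30 min, 300.6, 545.3, 225.6 and 254.9 at 4.5 h, and 3837.7, 3332.2 and 2708.7 with IL-2. The 30 min and 4.5 h arrays overlapped, and the IL-2 arrays lay above all of them. Time made a difference of −0.29 ± 0.31 (adjusted p = 0.51, not called), while the IL-2 arrays lay 3.32 ± 0.33 above the 4.5 h arrays and 3.03 ± 0.33 above the 30 min arrays. The second probe set, 1418349_at, read 1074.6, 1235 and 1557.3 with IL-2 and from 68.5 to 282.9 on the 8 arrays without it, with a difference over time of −0.18 ± 0.35 (adjusted p = 0.74).

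Of 17 tested genes of the EGF family, its receptors and the proteases and other proteins that regulate them, 0 rose and 1 fell with IL-2 against 4.5 h (median −0.306, or 0.49 with ribosomal protein centring). The one that fell was Tgfa, transforming growth factor alpha, another EGF receptor ligand, at −1.18 (adjusted p = 0.00124), after a rise with time of 1.00 ± 0.17 (adjusted p = 0.00156). Over time Errfi1, a feedback inhibitor of the EGF receptor, fell (−1.19 ± 0.22, adjusted p = 0.00262), as did Adam12, a metalloprotease (−1.46 ± 0.39, adjusted p = 0.016). Adam17, the main sheddase of Hbegf, stood at 1809 ± 155 (SD, n = 4), 959 ± 32.5 (SD, n = 4) and 1307 ± 41.1 (SD, n = 3) at 30 min, 4.5 h and with IL-2, and none of its differences reached 2-fold.

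Fgl2 encodes fibrinogen-like protein 2, which is known as a membrane prothrombinase of macrophages and endothelium and as a secreted suppressor of immune responses made by regulatory T cells. Its promoter window, printed above, holds both a GAS and an AP-1 match. At 1421855_at the signals were 102.1, 91.6, 85.3 and 140.5 at 30 min, 36.5, 51.4, 30.1 and 6.8 at 4.5 h, and 583.6, 633.1 and 595.5 with IL-2. The groups did not overlap, and the 3 IL-2 arrays lay close together. It fell with time by 1.44 ± 0.29 (adjusted p = 0.00398), a call that was lost with a pseudocount of 64 (−0.84), and the IL-2 arrays lay 3.82 ± 0.31 above those at 4.5 h and 2.38 ± 0.31 above those at 30 min. At 1421854_at the IL-2 arrays read 382.9, 402.4 and 409, against 68.5, 79, 18.2 and 60.7 at 30 min and 2, 3, 5.7 and 19.2 at 4.5 h. The arrays of the earlier and later time overlapped there, by 1 array each, and the difference over time was −1.58, from which no call is read.

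Of 16 genes listed for the fibrinogen family, coagulation and the Fgl2 receptor, 8 were tested, with a median of 0.088 for IL-2 against 4.5 h. Of the 8, Fcgr2b, the inhibitory Fc receptor to which soluble Fgl2 binds, was called, and 0 of the others were with IL-2 against 4.5 h or over time. It rose with time by 1.45 ± 0.19 (adjusted p = 0.000374), from 227 ± 22.9 (SD, n = 4) to 661 ± 156 (SD, n = 4), and was lower with IL-2 at 302 ± 67.0 (SD, n = 3), a log2 difference of −1.08 (adjusted p = 0.00347) from 4.5 h. Fcgr2b was thus highest in the 4.5 h group, where Fgl2 was lowest.

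Igfals encodes the acid labile subunit, a leucine-rich repeat protein that the liver secretes and that holds insulin-like growth factors in a circulating complex with their binding proteins. It is read by 1422826_at alone, with signals of 175.4, 148.5, 318 and 273.3 at 30 min, 45.4, 16.2, 13.1 and 15.4 at 4.5 h, and 537.9, 526.6 and 959.6 with IL-2. The groups did not overlap, and 1 array of the 4.5 h group and 1 of the IL-2 group lay well above the rest of their groups. It fell with time by 2.68 ± 0.32 (adjusted p = 0.000218). The IL-2 arrays lay 4.18 ± 0.34 above the 4.5 h arrays and 1.50 ± 0.34 above the 30 min arrays. It is the gene with GAS matches at 2 annotated starts, in the windows printed above.

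Of 16 listed genes of the insulin-like growth factor system 10 were tested, with a median of 0.069 for IL-2 against 4.5 h. Igf2r, the receptor that clears IGF2, was higher with IL-2 than at 4.5 h by 1.09 ± 0.23 (adjusted p = 0.0056), and Igf1 was lower (−1.81, adjusted p = 0.0289) after a rise with time of 1.49 ± 0.50 (adjusted p = 0.0421). Igf1 is a dim gene here, at 74.8 ± 44.9 (SD, n = 4), 216 ± 58.8 (SD, n = 4) and 61.8 ± 59.2 (SD, n = 3) at 30 min, 4.5 h and with IL-2. Igf1r, the IGF1 receptor, differed by 1.23 ± 0.52 between IL-2 and 4.5 h and was not called (adjusted p = 0.106). The neighbours of Igfals on chromosome 17, Hagh, Fahd1, Nubp2 and Spsb3, were all tested, and 0 of the 4 were called in either comparison.

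Among the genes of the cytoskeleton, Espn encodes espin, which bundles actin filaments in the stereocilia of hair cells and in microvilli. It lies on chromosome 4 and is read by 1423005_a_at. Its signals were 145.8, 188.9, 237.2 and 240.8 at 30 min, 2.1, 9.9, 10.1 and 11.5 at 4.5 h, and 384.3, 453.8 and 444.1 with IL-2. The groups did not overlap, and every 4.5 h array read far below the array median. It fell with time by 3.16 ± 0.19 (adjusted p = 1.12e-05), and the IL-2 arrays lay 4.20 ± 0.21 above those at 4.5 h and 1.04 ± 0.21 above those at 30 min. The size of both differences from 4.5 h depended on the pseudocount, since the 4.5 h signals were below 16. Values from 2.76 to 5.69 were found for IL-2 over the alternatives.

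Of 10 tested genes of actin bundling and crosslinking, 0 rose with IL-2 against 4.5 h and 1 fell, which was Avil, advillin (−1.01, adjusted p = 0.000593), a call lost with quantile or median scaling. Over time 1 fell, which was Flna, filamin A (−1.06, adjusted p = 0.00125), a call lost with median scaling. The median of this list with IL-2 was 0.002, or −0.022 with quantile scaling and 0.798 with ribosomal protein centring.

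Stard13 encodes a protein with a lipid-binding START domain. It lies on chromosome 5, and 1452604_at gave signals of 43.8, 4.8, 82.5 and 60 at 30 min, 3.2, 6.5, 9.1 and 19.4 at 4.5 h, and 170.5, 262.9 and 307.2 with IL-2. All IL-2 arrays lay above all others, and the 30 min and 4.5 h arrays overlapped through the single array at 4.8. The difference over time was −1.15, or −1.62 without that 30 min replicate 2. No call is read from either since the probe set passed the filter through the IL-2 arrays. The IL-2 arrays lay 3.36 ± 0.46 above the 4.5 h arrays and 2.21 ± 0.46 above the 30 min arrays. Every 4.5 h array and 3 of the 30 min arrays read below the median of their array.

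Tube1 encodes epsilon-tubulin, a tubulin of the centriole that is needed to form its triplet microtubules. It is on chromosome 10, with probe sets 1431873_a_at, 1437942_x_at and 1443481_at. At the first its signals were 72, 43.8, 125 and 49.3 at 30 min, 416.2, 226.9, 351.4 and 347.5 at 4.5 h, and 1719.8, 1516.8 and 1800.7 with IL-2. It was the gene whose level was higher at 4.5 h than at 30 min with no overlap, and IL-2 stood above both. The rise with time was 2.04 ± 0.27 (adjusted p = 0.000394), and the IL-2 arrays lay 2.30 ± 0.29 above the 4.5 h arrays and 4.34 ± 0.29 above the 30 min arrays. The order IL-2, then 4.5 h, then 30 min was found without overlap at 2.09% of the tested probe sets, against 0.944% for the order IL-2, then 30 min, then 4.5 h. At 1437942_x_at the signals were 126.5, 176.7, 121.1 and 144.5 at 30 min, 229.5, 104.6, 213.8 and 189.4 at 4.5 h, and 538.4, 509.9 and 617.5 with IL-2. At 1443481_at they were 17.9, 27.7, 36.7 and 16.6, then 37.5, 7.5, 8.7 and 8.8, then 178.7, 164.4 and 130.6. At both, the IL-2 arrays lay above all others, by 1.56 ± 0.24 and 2.54 ± 0.30 against 4.5 h. Time gave 0.30 ± 0.22 (adjusted p = 0.337) at the second and −0.43, from which no call is read, at the third, so the rise with time was seen at the brightest probe set. As a mean over the 3 it was 0.64, under 2-fold.

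Of 16 tested tubulins and gamma-tubulin complex genes 1 rose and 3 fell with IL-2 against 4.5 h, with a median of −0.304, or 0.491 with ribosomal protein centring. Tubgcp5, a subunit of the gamma-tubulin ring, was higher by 1.62 ± 0.17 (adjusted p = 0.000144). The tubulin chains Tubb2a, Tuba1a and Tubb5 were lower, at −1.36, −1.29 and −1.30 (adjusted p = 0.000372, 0.00143 and 0.00174). Over time Tubb4b and Tubb6 fell, at −1.43 ± 0.14 and −1.82 ± 0.18 (adjusted p = 7.43e-05 and 0.000103). Tubd1, the delta-tubulin of the same triplet structure, read 214 ± 57.9 (SD, n = 4), 218 ± 38.4 (SD, n = 4) and 211 ± 23.6 (SD, n = 3) and was not called.

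Gtf2ird1 encodes a transcription factor of the TFII-I family that lies in the region deleted in Williams syndrome in humans. Its mouse gene is on chromosome 5. At 1451899_a_at the signals were 1223.3, 1045.9, 1595.8 and 1249.5 at 30 min, 477.7, 499.4, 367.6 and 367.6 at 4.5 h, and 3581.3, 3579.2 and 4148.8 with IL-2. The groups did not overlap, and all arrays lay well above the array median. It fell with time by 1.54 ± 0.17 (adjusted p = 0.000144), and the IL-2 arrays lay 3.10 ± 0.18 above the 4.5 h arrays and 1.56 ± 0.18 above the 30 min arrays. At 1460364_at the signals were 115.4, 89.7, 100.7 and 45.7 at 30 min, 17.1, 30, 12.8 and 26.4 at 4.5 h, and 213.6, 305.6 and 247.7 with IL-2. That probe set put the groups in the same order without overlap, with a fall over time of 1.44 ± 0.25 (adjusted p = 0.00172) and an IL-2 difference from 30 min of 1.43 ± 0.27.

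Of 19 tested genes of the TFII-I family and the Williams region 2 rose with IL-2 against 4.5 h and 0 fell, with a median of 0.448. With ribosomal protein centring 13 were called higher, and the median was 1.24. Those called with the deposited scaling were Dnajc30, a mitochondrial J-domain protein, at 1.99 ± 0.18 (adjusted p = 8.57e-05), and Lat2, an adaptor of immune receptors, at 1.11 ± 0.27 (adjusted p = 0.011). Over time 3 fell, namely Ncf1, a subunit of the phagocyte oxidase, at −2.29 ± 0.28 (adjusted p = 0.000241), Clip2 at −2.60 ± 0.53 (adjusted p = 0.00413), and Lat2 at −1.18 ± 0.25 (adjusted p = 0.00471). Ncf1 and Clip2 are also neighbours of Gtf2ird1 in the genome. Neither was called with IL-2 against 4.5 h, at 0.90 ± 0.30 (adjusted p = 0.0456, under 2-fold) and 0.73 ± 0.57 (adjusted p = 0.382). Gtf2i, the family's founding member and the next gene, differed by 0.38 ± 0.12 (adjusted p = 0.0397, under 2-fold).

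**Figure D2:**
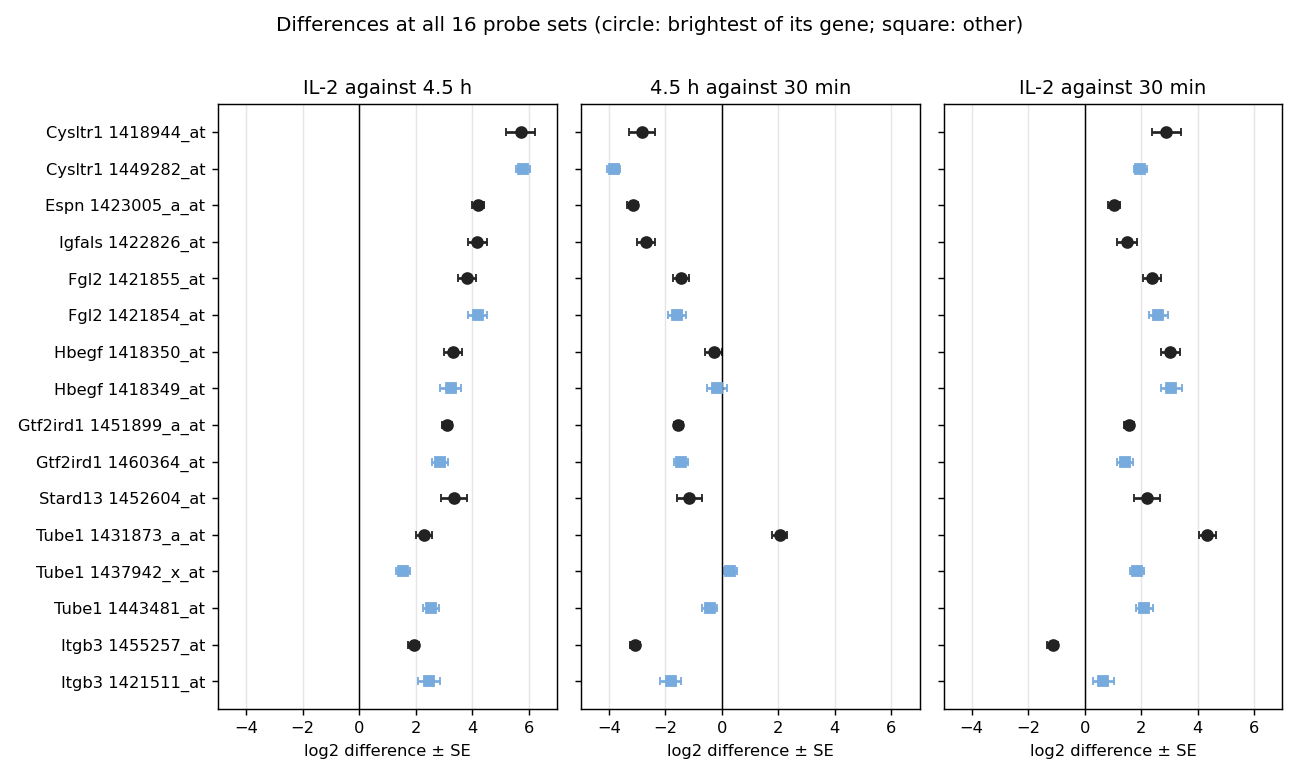
Difference in log2(signal + 16) of every probe set of the 9 genes for the comparisons between the 3 groups, with bars of 1 SE. The differences of IL-2 from 4.5 h are all above 0 (1.56 to 5.81), while those over time run from −3.83 to 2.04.

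From 30 min to 4.5 h of cycloheximide, 7 of the 8 genes whose brightest probe set reached the filter without the IL-2 arrays were called, 1 higher and 6 lower, where 7.22% of the 12754 genes were called higher and 4.75% lower and the median was 0.08. The median over all 9 genes was −1.54. Of the 13 probe sets that reached the filter in that way 1 was called higher and 9 lower, beside 6.48% and 6.76% of all probe sets, and 17.3% and 15% were higher and lower over time without overlap. As the 4.5 h arrays also took part in choosing the genes, that share cannot be read as independent of the choice. Against 30 min, which the choice also drew on, 8 of the 9 genes were higher with IL-2 and Itgb3 was lower, with a median of 2.21 and no overlap of arrays at the brightest probe sets, where 16.5% of probe sets were higher and 16% lower without overlap. The shares called were 6.32% and 4.26% of probe sets and 6.94% and 4.46% of genes. Within the first scan day, which held 3 arrays of each of these groups, the differences were 2.89 for Cysltr1, 1.12 for Espn, 1.67 for Igfals, 2.30 for Fgl2 and 3.26 for Hbegf. They were 1.67 for Gtf2ird1, 2.49 for Stard13, 4.59 for Tube1 and −1.12 for Itgb3. That comparison drops only 30 min replicate 3 and keeps the other arrays of these groups, so its like signs are no separate support.

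Summed signals of some markers of other cells were also lower at 4.5 h, and a few genes carried them. The 6 mast cell markers summed to 3029 to 4999 at 30 min, 837 to 1229 at 4.5 h and 2268 to 2423 with IL-2, the order that Itgb3 showed. Kit and Cpa3 carried that sum, with means of 3136 and 827 at 30 min and 728 and 159 at 4.5 h, while Mcpt4, Tpsb2, Fcer1a and Ms4a2 had means below 100 in each group that were higher at 4.5 h than at 30 min (17.0 against 32.8 for Mcpt4). The 8 macrophage markers summed to 6915 to 8605, 4013 to 4765 and 5180 to 5614, with 3 of the 8 below 100 in each group. Tyrobp and Cd68 carried that sum, at 5801 and 1288 at 30 min and 2905 and 732 at 4.5 h, while the means of Csf1r, Cd14 and Mpeg1 were higher at 4.5 h (190 against 227 for Csf1r). Their part in the results was not tested. The known IL-2 targets Cish, Socs1, Il2ra and Myc were higher with IL-2 than at 4.5 h by 2.07, 2.32, 2.12 and 3.34 (adjusted p = 0.00144, 0.000292, 7.68e-05 and 5.85e-05), which checks the labels of these 3 arrays. Of these 4, Il2ra, which encodes a chain of the cytokine's receptor, also fell with time (−1.78 ± 0.18, adjusted p = 9.53e-05) and was not called between IL-2 and 30 min (0.34 ± 0.19, adjusted p = 0.232). Cish and Socs1 rose with time in the absence of IL-2, by 1.42 ± 0.31 and 1.14 ± 0.26 (adjusted p = 0.00589 and 0.007). Myc was not called over time (−0.35 ± 0.27, adjusted p = 0.351).

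Over the 9 family lists together 182 genes were listed, 170 were on the array and 128 were tested. With IL-2 against 4.5 h 8 rose (6.25%) and 13 fell (10.2%), beside 5.04% and 5.94% of all genes tested, and the median was −0.14. With ribosomal protein centring 37 of the 128 were called higher and 2 lower, and the median was 0.655. None of the 21 calls changed sign under that centring, although 11 were lost, which left Itgb4 and Itgb7 of the 13 genes that fell. Over time 9 rose and 10 fell, beside 7.22% and 4.75% of all genes, and 3 rose and 21 fell with that centring, which ended calls over time that included those of Igf1, Itgb4, Mgst2 and Tgfa. Leaving out single arrays ended 6 of the 21 calls with IL-2, namely those of Cysltr2, Lat2 and Avil without IL-2 replicate 4, Mgst2 without IL-2 replicate 1, and Fcgr2b and Igf1 without IL-2 replicate 2 or 4.5 h replicate 4. The Igf1 call also ended without IL-2 replicate 4 or 4.5 h replicate 2. Over time 8 of 19 calls ended without 1 array or another. Among them, that of Itgb4 ended without 30 min replicate 4, Itgae without 30 min or 4.5 h replicate 4, and Flna without 30 min replicate 1 or 2. The calls of Ltb4r1, Tgfa and Igf1 over time ended without any of 3, 4 and 8 of the 11 arrays.

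**Figure D3:**
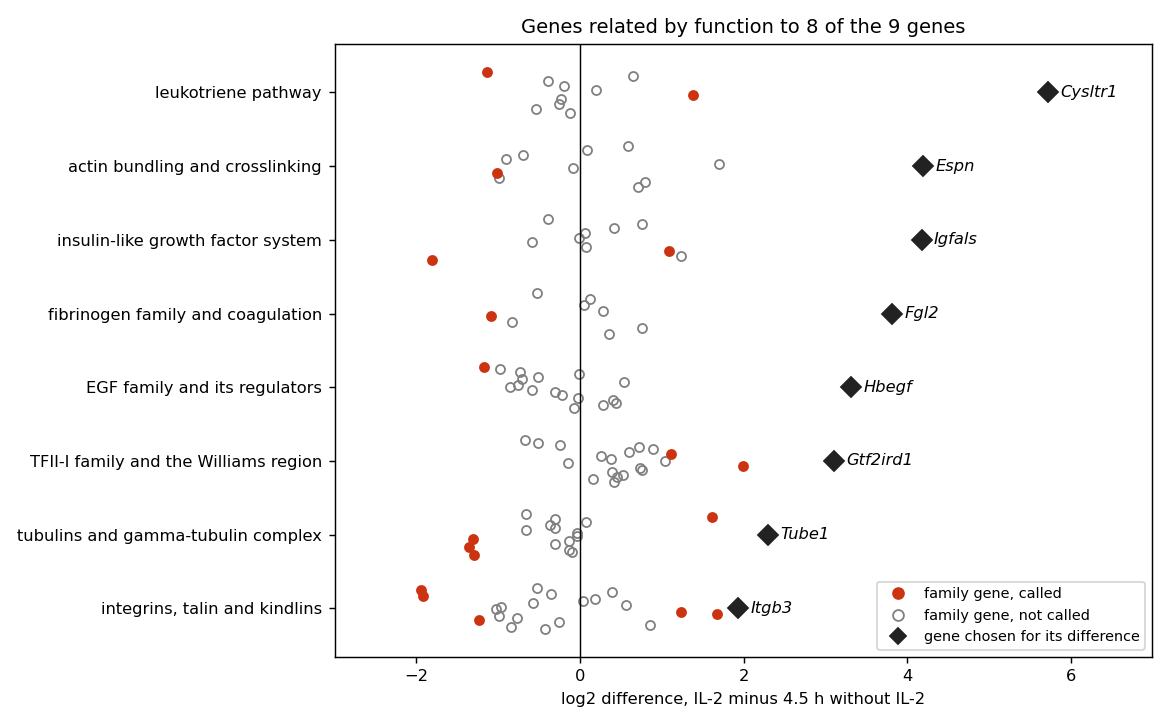
Difference in log2(signal + 16), IL-2 minus 4.5 h, of the tested genes of 8 family lists, with called genes as filled circles, others as open circles, and the gene each list belongs to as a diamond. The diamonds lie between 1.94 (Itgb3) and 5.72 (Cysltr1), to the right of the genes of their own lists.

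The genes that lie beside the 9 in the mouse genome were read in the same way. Of 36 neighbours, 2 on each side of each gene, 22 were tested. With IL-2 against 4.5 h 2 were called higher and 1 lower, beside 5.04% and 5.94% of all genes tested. Counts this small cannot be told apart from those shares. Rfc3, a subunit of the clamp loader of DNA replication and the second gene on 1 side of Stard13, was higher by 2.08 ± 0.12 (adjusted p = 9.09e-06). It stood at 1102, 2560 and 10891 at 30 min, 4.5 h and with IL-2 and rose with time as well, by 1.21 ± 0.11 (adjusted p = 6.69e-05), a call over time that was lost with ribosomal protein centring. Cystm1, beside Hbegf, was higher by 1.82 ± 0.21 (adjusted p = 0.000258), and Myl4, a myosin light chain beside Itgb3, was lower (−1.27, adjusted p = 0.00579), a call that was lost with ribosomal protein centring, under which 11 neighbours were called higher and 0 lower. Myl4 had risen with time by 1.09 ± 0.25 (adjusted p = 0.0072), a call also lost with that centring and without 30 min or 4.5 h replicate 4. Fam185a, near Fgl2, was called between IL-2 and 30 min, at 1.43 ± 0.16 (adjusted p = 0.000176). Of the tested neighbours of Espn, Igfals, Fgl2, Gtf2ird1 and Tube1, 0 were called for IL-2 against 4.5 h. Ncf1 and Clip2 beside Gtf2ird1 and Fyn near Tube1 were called lower with IL-2 than at 30 min, calls lost with ribosomal protein centring. The Fyn call was also lost with median centring, and that of Clip2 without any of 6 of the 11 arrays. Rfc3 and Cystm1 were called higher than at 30 min, at 3.29 ± 0.12 and 1.10 ± 0.21 (adjusted p = 3.05e-07 and 0.00394). The Cystm1 call was lost with quantile scaling. Fyn, a Src family kinase near Tube1, fell with time (−1.51 ± 0.15, adjusted p = 8.23e-05), in the direction opposite to the brightest probe set of Tube1.

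The likeness of patterns was measured as Pearson's r of log2 values over the 11 arrays, against 11921 genes. These values are a description, since all genes share the 3 groups and the arrays. Among the 9 the closest pair was Cysltr1 and Gtf2ird1 at 0.979 and the least alike was Tube1 and Itgb3 at −0.384. The genes most like Cysltr1 were Mdfic (0.982), Gtf2ird1 (0.979) and Tlr4, the endotoxin receptor (0.971). For Gtf2ird1 they were Tent5a (0.996), Dnajc30 (0.991) and Mdfic (0.986), so Dnajc30, from the same genomic region, was among the nearest of all genes. For Fgl2 they were Tlr4 (0.987), Snupn (0.977) and Smad2, a mediator of TGF-beta signalling (0.972). For Espn they were Cited2 (0.989), Mxi1, an antagonist of Myc (0.982), and Denr (0.982), and for Igfals Ostm1 (0.985), Tmem41a (0.983) and Synj2bp (0.981). Hbegf was most like Cdk6, a kinase of the G1 phase of the cell cycle (0.986), Gmppb (0.972) and Mtf1 (0.968). Stard13 was most like Mterf1a (0.965), Rbpj, the transcription factor of Notch signalling (0.962), and Spata7 (0.961). Tube1 was most like Zfp445 (0.984), Sgk3 (0.983) and Zfp384 (0.983), and Itgb3 was most like Tmem165 (0.992), Glipr1 (0.992) and Rabgef1 (0.989).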

How the data were processed

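Each value in the table the authors deposited is an intensity on a linear scale. GCOS 1.3 is the software named in the submitters' processing notes. The trimmed mean of each array, without the lowest and highest 2% of probe sets, was 500. The sources used here do not name the method that summarised probes or removed background. The deposited scanner experiment files, whose fields are other text values per the file headers, served only to number the scan days.

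Differences were computed on log2(signal + 16), which understates those of dim probe sets, with no further normalization. Of 45101 probe sets 64 were controls, and the 27022 at or above the 40th percentile of the mean log2 value (a signal of 33.6) were tested. Among those that are not controls 34945 had 1 symbol in the platform's probe table, 932 had several and 9160 had none, and 0 symbols needed updating. The brightest tested probe set stood for a gene, which gave 12754 genes. One model of 3 groups was fitted to 11 arrays in limma 3.58.1, using lmFit and eBayes under R 4.3.3, and the adjusted p-values in the text are limma's, by Benjamini-Hochberg over all probe sets tested. To be called, a probe set needed both an adjusted p below 0.05 and a difference of 2-fold or more. The fit was tested on simulated data. Sequences are RefSeq's, read with python 3.11.15, and figures were drawn with matplotlib 3.10.9.

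The 9 genes, the lists and the tests were chosen with earlier results of these data known. Named were the 9 genes at every probe set, up to 4 called genes of each family list by p-value for IL-2 against 4.5 h and over time, called neighbours, and the 3 genes most like each of the 9. The genes of 1 family list, counted in the totals, are not reported here. Any further gene was named with its values known. Alternatives were quantile, median and ribosomal protein scaling, a pseudocount of 1 or of 64, a filter at the 60th percentile, no filter, other limma settings, the mean over probe sets, the replicate number as a block, all 12 arrays, and each array left out in turn.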

Additional observations from a re-analysis of the deposited data

Results flagged for a closer look

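Over the 9 genes, 18 groups of 4 arrays were read for an array far from the other 3, and 2 were found, where chance alone gives about 5% of groups. For Espn after 4.5 h of cycloheximide, replicate 1 was the lowest array at 2.1, with the other 3 between 9.9 and 11.5. For Igfals in the same group, replicate 1 was the highest array at 45.4, with the others between 13.1 and 16.2. Both arrays are the same one, and both genes were called over time without it.

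The array labelled IL-2 replicate 3, which enters no comparison and carries muscle instead of T cell transcripts, read above all 8 arrays without IL-2 for 3 of the 9 genes. These were Hbegf at 826.6, Gtf2ird1 at 3993.0 and Stard13 at 134.9. For Gtf2ird1 that lay within the range of the other IL-2 arrays, 3579.2 to 4148.8, while for Hbegf and Stard13 it lay below their lowest, 2708.7 and 170.5. Such readings cannot be assigned to CTLL-2 cells, and where they come from was not tested.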

How the results depend on the processing

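No sign of a difference of the 9 genes was reversed under any alternative run. Reading another single probe set of a gene was not among these runs. For Itgb3 against 30 min it gave 0.66 at 1421511_at in place of −1.13 at 1455257_at. For Tube1 over time it gave −0.43 at 1443481_at in place of 2.04 at 1431873_a_at. The median of the 9 for IL-2 against 4.5 h (3.36) was 4.16 with ribosomal protein centring, 4.52 with a pseudocount of 1 and 2.83 with 64. Against 30 min (2.21) it was 2.73 with that centring, 1.53 with a pseudocount of 64 and 1.44 with all 12 arrays. With 12 arrays, which take in the array without T cell transcripts, 2 of the 9, Espn and Gtf2ird1, were called over time in place of 7, and the adjusted p of the other 5 ran from 0.0581 to 0.394 at the same differences. The family genes called were then 8 with IL-2 and 9 over time in place of 21 and 19, and neighbours 1 in place of 3. With ribosomal protein centring 39 family genes and 11 neighbours were called with IL-2 against 4.5 h. Of all probe sets, 3281 were called for IL-2 against 4.5 h (54.6% higher), 9408 with that centring (97.5% higher) and 1228 with 12 arrays (41.7% higher). Over time 3578 were called (48.9% higher), 2249 with a pseudocount of 64, 1920 with 12 arrays and 4211 with that centring (18.6% higher). Between IL-2 and 30 min 2859 were called (59.7% higher), 4937 with that centring (94.4% higher) and 951 with 12 arrays (48.1% higher).

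Leaving out each array in turn moved the median of the 9 between 3.3 and 3.59 for IL-2 against 4.5 h and between 1.74 and 2.4 against 30 min. Calls of the 9 over time in these runs are not counted here, since the count took in Stard13. Family genes called ran from 19 to 23 with IL-2 and 16 to 23 over time, and neighbours from 3 to 4. With the replicate number as a block the medians were 3.50 and 2.35. Whether the numbers pair the arrays cannot be told from these values. Same-numbered arrays of the IL-2 and 30 min groups had deviations correlated at 0.126, 0.091 and 0.216. Each of these IL-2 arrays correlated best there with its own number. The 30 min replicate 2, however, was closer to IL-2 replicate 1 (0.124) than to its own number (0.091). Same-numbered arrays that included the 4.5 h group were at −0.018 to 0.059. Stard13 gave no value with the 60th percentile filter. Dim signals at 4.5 h, below the array median on all 4 arrays for 5 of the 9 genes, limit the sizes of their differences.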
